A study of Zea mays with 4 samples.

Results

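The comparison set microRNAs in maize leaves after 3 days of feeding by Spodoptera frugiperda against those after 1 day of feeding, and covered 2 of the 4 small RNA libraries of the study. T3 was made from leaves of maize (Zea mays) plants at the four-leaf stage on which the larvae of this moth, the fall armyworm, had fed for 3 days. T1 was made from leaves of the same stage after 1 day of feeding. CK3 and CK1 were made from leaves of the same stage for which the labels name no feeding and no sampling time, and their values are given beside those of the fed leaves. The labels name no cultivar, no number of plants or larvae and no replicate, so each group was 1 library, no difference below has a replicate check, and no test was made. The labels do not say whether the leaves of T3 and T1 came from the same plants. The deposited table held 500 rows with 319 distinct sequences, and 165 of the 319 had at least 10 normalized reads in T3 or T1 and were compared. The other 154 stood below that minimum in both libraries.

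In plants, microRNAs are cut by a Dicer-like enzyme from hairpin precursors as a duplex of a 5p and a 3p strand, of which usually 1 strand is loaded into an Argonaute protein. The loaded strand pairs with a nearly complementary site in a messenger RNA and leads to its cleavage or reduced translation. Many conserved plant families act on transcription factors of growth and leaf development. Others act on auxin signalling, on copper proteins and laccases, on phosphate uptake or on the small RNA machinery itself. Chewing insects wound the leaf and set off jasmonate signalling, and several of these families have been studied in wounded or herbivore-attacked plants.

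The sequences that carry the differences between T3 and T1 are given first, 5′ to 3′ in DNA letters as deposited, with the seed (bases 2 to 8) in capitals. The first set holds maize sequences whose differences are described at length below, which are the miR171d 5p strand, a miR156i 3p strand, the miR159a 5p strand, 3 sequences of the MIR169c precursor, the miR397b 5p strand and the MIR408a strand opposite miR408a. In the names of the table, a capital MIR with p5 or p3 marks a sequence placed on an arm of a known precursor, and suffixes such as L-1 or R+1 mark bases lost or gained at the left or right end, while ss marks substituted bases.
zma-miR171d-5p: tGTTGGCTcggctcactcaga
zma-miR156i-3p: gCTCACTGctctatctgtcatc
zma-miR159a-5p: gAGCTCCTatcattccaatga
zma-MIR169c-p5: aGAACGGGatgcagccaagga
zma-miR169c-5p: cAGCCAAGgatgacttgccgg
zma-MIR169c-p3: tCCTTGGCtacacctagttctc
zma-MIR397b-p5: tTGAGCGCagcgttgatgagc
zma-MIR408a-p5: cAGGGATGagacagagcatgg

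The second set holds miR156a-5p and the 3 compared sequences that extend it at the 3′ end, shown because the longer forms differed more between T3 and T1 than the shortest one did. All 4 share the seed GACAGAA.
zma-miR156a-5p: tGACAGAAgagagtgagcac
bdi-miR156b-5p_R+1: tGACAGAAgagagtgagcacc
bdi-miR156b-5p_R+2: tGACAGAAgagagtgagcacca
bdi-miR156b-5p_R+3: tGACAGAAgagagtgagcaccca

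The third set holds abundant strands of known families that stood at nearly the same level in T3 and T1, or led a family that leaned one way.
zma-miR528a-5p: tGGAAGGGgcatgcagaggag
zma-miR408a: cTGCACTGcctcttccctggc
zma-miR168a-5p: tCGCTTGGtgcagatcgggac
zma-miR166a-3p: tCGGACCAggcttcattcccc
zma-miR827-3p: tTAGATGAccatcagcaaaca
zma-miR398a-3p: tGTGTTCTcaggtcgcccccg
zma-miR164a-5p: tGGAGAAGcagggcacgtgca
zma-miR160a-5p: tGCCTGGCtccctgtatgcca
zma-miR390a-5p: aAGCTCAGgagggatagcgcc

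The listed values summed to 59686 normalized reads in T3, 59335 in T1, 69028 in CK3 and 59320 in CK1, with equal-valued sequences counted once. Most values were whole multiples of a smallest step, taken as 1 read, and this step stood for 0.352 units in T3, 0.303 in T1, 0.826 in CK3 and 0.736 in CK1. The listed sequences thus held about 169533 implied reads in T3 and 195983 in T1, against 83592 in CK3 and 80609 in CK1, so both fed libraries were deeper than the unfed ones. Hardly any listed value lay below 5 reads, which is 1.76 units in T3 and 1.51 in T1, and a sequence listed at 0 may stand anywhere below that level. None of the insect microRNA names searched for was in the table (0 found), and leaf identity could not be checked from microRNA names. In bulk leaf tissue, fewer cells of a type and less RNA per cell cannot be told apart.

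Most leaf microRNAs stood close together in T3 and T1. By size, T3 exceeded T1 by 2-fold or more in 23 of the 165 compared sequences, fell short of it by 2-fold or more in 6, and differed by less in 136. These shares, 13.9% higher and 3.64% lower, are the background for the counts of each family and class below. Differences are given as log2 ratios of T3 over T1 after adding 1 to each value, which understates the change of low values. The median log2 ratio of the 165 was 0.10, with quartiles of -0.20 and 0.67, and 100 sequences were above 0 and 65 below. Exact 95% Clopper-Pearson intervals from the implied reads cover counting error only, since without molecular identifiers several reads can come from 1 molecule. Intervals of ratios were taken without the added 1, so at low values they are centred further from 0 than the log2 ratio beside them. The interval lay inside 1.5-fold either way for 54 sequences, which are called level below. Few reads give a wide interval, so a sequence with few reads could not be level even at equal values. Counts of level sequences thus follow depth as well as the ratios. It lay wholly beyond 2-fold higher for 9 sequences and wholly beyond 2-fold lower for 1.

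The split of higher and lower calls depended on how the libraries were scaled. Scaling to the median of ratios over the 243 sequences listed above 0 in both fed libraries lowered every log2 ratio by about 0.21, so that the median became -0.12. It left 10 higher and 9 lower calls, or 52.6% higher among those called, against 79.3% with the values as deposited. All 10 of these higher calls and 6 of the 9 lower calls were calls of the deposited scaling too. Among the sequences just past the 2-fold line, bdi-miR156b-5p_R+1 had a log2 ratio of 1.0 and zma-miR169m-3p_L+1 one of -1.0. Just short of it stood zma-miR167j-3p_L+1 at 0.95 and aly-MIR4226-p5_2ss13AC18TG at -0.96.

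**Figure D1:**
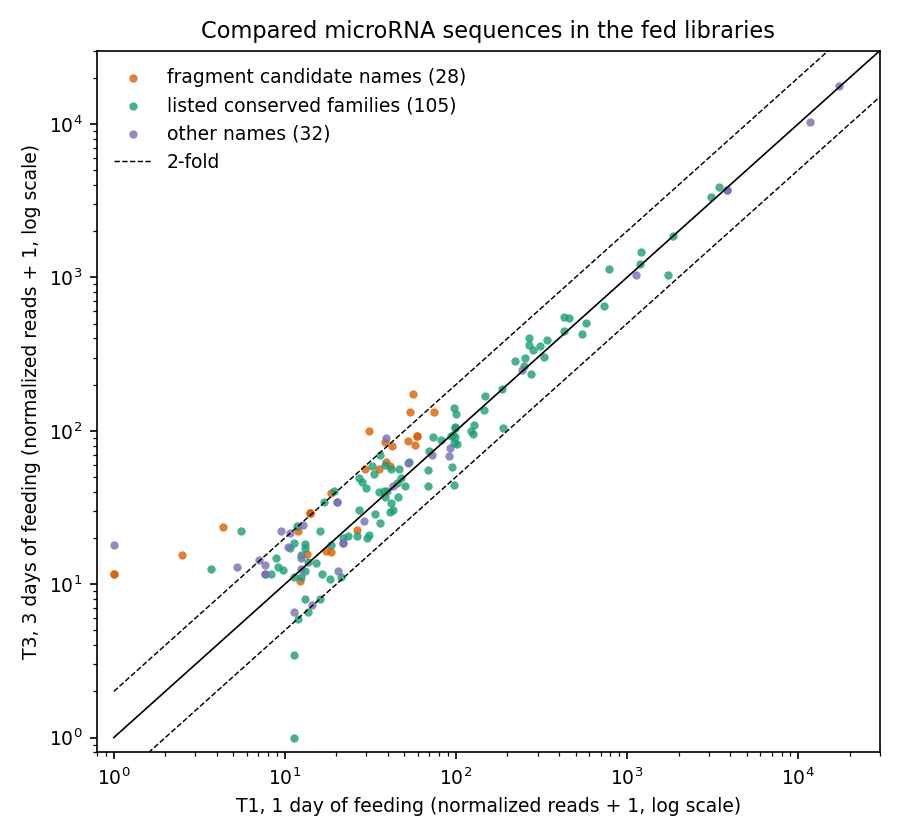
Normalized reads of the 165 compared sequences in T3 (vertical) against T1 (horizontal), each plus 1 on log axes, with dashed lines at 2-fold. Colours mark names that are candidates for ribosomal or transfer RNA fragments, listed conserved families and other names. Of the 23 higher calls and 6 lower calls, all but 1 have a mean below 100, while the 11 sequences with a mean of at least 1000 lie between the dashed lines.

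The 2-fold calls were concentrated among less abundant sequences, where counting error is also larger and fewer sequences can be level. Of the 42 sequences with a mean of at least 100 normalized reads over T3 and T1, 1 was called higher, none was called lower and 34 were level. Of the 11 with a mean of at least 1000, none was called and 10 were level, with log2 ratios from -0.74 to 0.28. The most abundant sequence, tae-MIR9774-p5_2ss4AG21GT, named after a wheat precursor, had 17711 normalized reads in T3 and 17449 in T1, against 21283 in CK3 and 15820 in CK1. Its overlapping form tae-MIR9774-p3_2ss4AG21GT had 10290 in T3 and 11781 in T1, against 14678 in CK3 and 12110 in CK1. The forms tae-MIR9774-p3_2ss5AG22GT_1 and _2 shared the values 3699 in T3 and 3823 in T1, against 5353 in CK3 and 4588 in CK1. For all of these CK3 was the highest library. Sequences named after miR9774 made up 55.4% of the listed values in T3 and 58.2% in T1. All 8 of them that were compared were level, and their total had a log2 ratio of -0.06. The target of this wheat-named family in maize is not annotated in the table.

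Several of the best-known families were equally steady. The strand zma-miR528a-5p, of a grass family whose targets include laccases in maize, had 1867 normalized reads in T3 and 1857 in T1, against 1201 in CK3 and 2157 in CK1. The fed values thus lay within the range spanned by the unfed ones, and the log2 ratio of 0.01 had an interval of -0.05 to 0.06. The copper-responsive strand zma-miR408a, whose targets include plantacyanins and laccases, had 3332 in T3 and 3110 in T1, against 3844 in CK3 and 2641 in CK1, a log2 ratio of 0.10. Its sign changed under median-of-ratios scaling. The strand zma-miR168b-3p_R+1 had 3908 in T3 and 3444 in T1, against 3005 in CK3 and 3889 in CK1. Its partner family member zma-miR168a-5p, the strand that guides cleavage of the Argonaute1 messenger, had 1227 in T3 and 1187 in T1, against 979 in CK3 and 1365 in CK1. Both were level, with log2 ratios of 0.18 and 0.05, and both signs changed under median-of-ratios scaling.

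Among 27 conserved families with at least 10 normalized reads in total in either fed library, no family total differed 2-fold between T3 and T1. The totals of 18 families stayed within 1.2-fold, 6 families exceeded that in T3, and 3 fell short of T1 by more. The 6 higher families were miR827, miR1432, miR398, miR164, miR160 and miR162, and the 3 lower ones were miR397, miR2118 and miR390. The totals of miR1432, miR162 and miR2118 were low, and their counting intervals included 0. These intervals were -0.09 to 1.05, -0.09 to 0.79 and -0.98 to 0.15. The directions of all 9 families were the same under median-of-ratios scaling, but the balance turned round. Then 1 family (miR827) was at least 1.2-fold higher in T3 and 7 were at least 1.2-fold lower. The 7 were miR397, miR2118, miR390, miR169, miR393, miR396 and miR444. The totals of 9 other families changed sign under it, namely miR167, miR168, miR156, miR319, miR529, miR482, miR394, miR408 and miR171, whose log2 ratios lay between 0 and 0.20 as deposited. Over all 105 compared members of the listed families, 5 were called higher, 6 lower and 44 were level, with a median log2 ratio of 0.03 against 0.10 for all compared sequences.

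**Figure D2:**
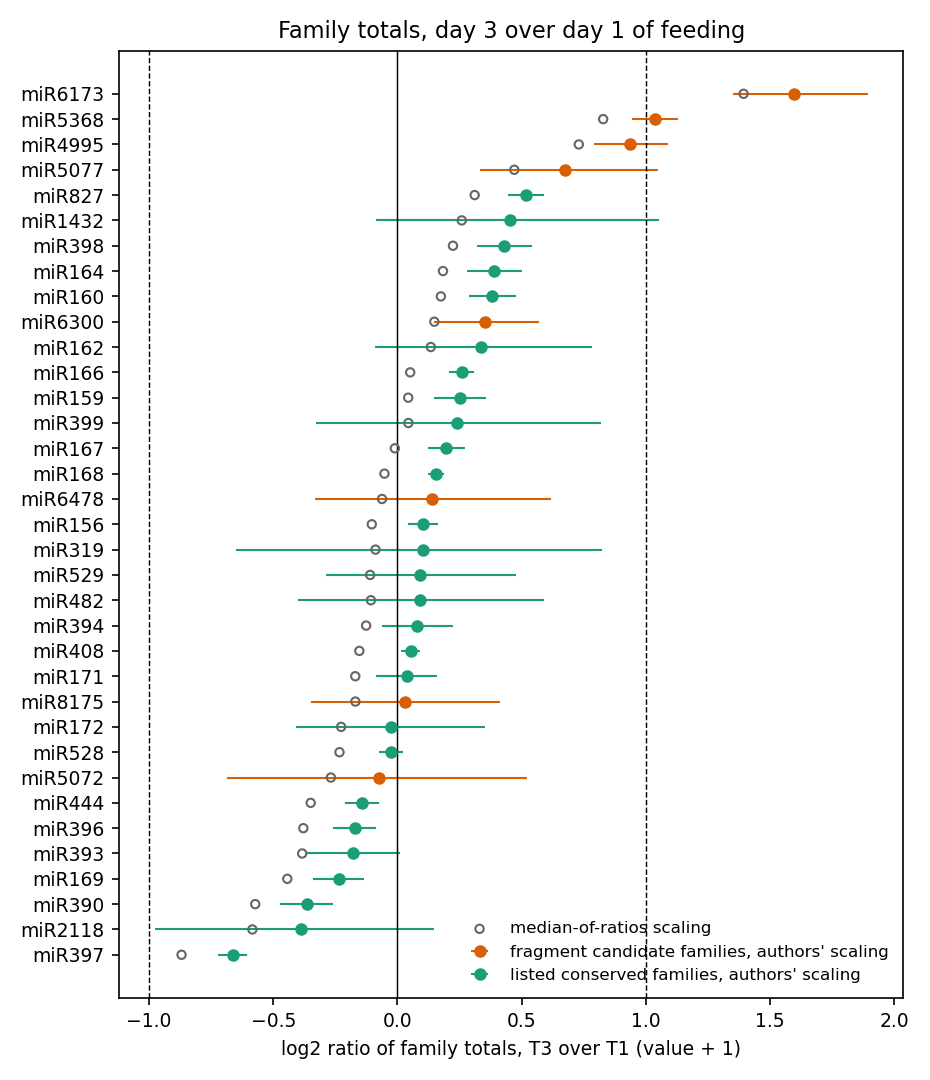
Log2 ratio of T3 over T1 for the totals of the 27 conserved families and of the fragment candidate families, as deposited (filled symbols, with exact 95% counting intervals). Small open symbols give the same totals under median-of-ratios scaling. As deposited, the totals of the conserved families run from -0.66 for miR397 to 0.52 for miR827. Those of the candidate families run from -0.07 for miR5072 to 1.60 for miR6173.

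The families that act on growth and leaf development held 59 compared sequences, of which 4 were called higher, 5 lower and 18 were level, with a median log2 ratio of 0.01. Family miR166, which targets class III homeodomain-leucine zipper genes of leaf polarity, totalled 2347 normalized reads in T3 and 1962 in T1, a log2 ratio of 0.26. Its leading strand zma-miR166a-3p had 1470 in T3 and 1208 in T1, against 778 in CK3 and 932 in CK1. Both fed values lay above both unfed values for this strand. The 4 compared miR166 sequences named 3p all had ratios above 0, while 2 of 5 named 5p did. The 4 named 3p all have the seed CGGACCA, and 3 of them stayed above 0 under median-of-ratios scaling. The same seed is held by 2 compared sequences with no arm in the name, and both had ratios below 0. They were ssp-miR166_R+1 at -0.06, which is zma-miR166a-3p with 1 more base, and osa-miR166m_1ss21TA at -0.53.

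The miR164 family, which targets NAC transcription factors of organ boundaries, totalled 492 normalized reads in T3 and 375 in T1, with a log2 ratio of 0.39. Its leading strand zma-miR164a-5p had 362 in T3 and 267 in T1, against 173 in CK3 and 354 in CK1. T3 was the highest of the 4 libraries, but CK1 stood close to it. All 4 miR164 sequences with the seed GGAGAAG had ratios between 0.44 and 0.51, and the opposite strand zma-miR164b-3p_L+2 had 19.0 in T3 and 29.1 in T1, a ratio of -0.59.

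Family miR159, which targets GAMYB transcription factors, totalled 539 normalized reads in T3 and 453 in T1. Its guide strand zma-miR159a-3p had 298 in T3 and 253 in T1, against 175 in CK3 and 327 in CK1, and was level at a log2 ratio of 0.24. The opposite strand zma-miR159a-5p had 39.8 in T3 and 18.5 in T1, against 19.0 in CK3 and 5.89 in CK1, and was called higher at 1.07. T3 thus stood above the other 3 libraries for the 5p strand and between the unfed libraries for the guide strand.

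Family miR396, which targets growth-regulating factors, totalled 673 normalized reads in T3 and 759 in T1, a log2 ratio of -0.17. None of its 5 compared sequences was called. The leading sequence zma-miR396c_L-1 had 507 in T3 and 572 in T1, against 467 in CK3 and 506 in CK1. Family miR172, which targets AP2-like factors of the juvenile-to-adult change, was near the minimum, and its leading compared sequence zma-miR172c-5p_L+1 had 11.3 in T3 and 12.1 in T1. It was listed at 0 in CK3 and had 14.7 in CK1. Family miR319, which targets TCP factors of leaf shape, was low as well, with zma-miR319a-3p_R+1 at 11.4 in T3 and 8.78 in T1, against 2.06 in CK3 and 6.62 in CK1. Family miR529, which shares SPL targets with miR156, was represented by zma-miR529-5p with 39.4 in T3 and 36.9 in T1, against 74.3 in CK3 and 50.04 in CK1, and was level.

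The miR169 family, which targets the NF-YA subunits of a CCAAT-binding transcription factor, had the most lower calls of any family. Of its 12 compared sequences, 3 were called lower, 1 was called higher, and the median log2 ratio was -0.70, while the family total was 460 normalized reads in T3 and 542 in T1, a ratio of -0.24. The sequence zma-MIR169c-p5 had 43.1 in T3 and 96.2 in T1, against 89.2 in CK3 and 55.4 in CK1, a log2 ratio of -1.14 with an interval of -1.48 to -0.86. T3 was the lowest of the 4 libraries and T1 the highest. The opposite strand zma-MIR169c-p3 had 57.0 in T3 and 93.2 in T1, against 95.8 in CK3 and 58.9 in CK1, a ratio of -0.70. The third sequence of this precursor, zma-miR169c-5p, had 10.2 in T3 and 20.3 in T1, against 13.2 in CK3 and 11.8 in CK1, a ratio of -0.93. The first 10 bases of zma-miR169c-5p are the last 10 of zma-MIR169c-p5, so the 2 start 11 bases apart on the same arm, and all 3 MIR169c sequences were lower in T3. The 3 sequences with the family seed AGCCAAG had ratios from -0.93 to -0.11.

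The other miR169 calls were of strands named 3p. The sequence zma-MIR169g-p3 had 5.63 normalized reads in T3 and 12.7 in T1, against 19.8 in CK3 and 10.3 in CK1, a log2 ratio of -1.05. The sequence zma-miR169m-3p_L+1 had 7.04 in T3 and 15.1 in T1, against 9.91 in CK3 and a listing at 0 in CK1, a ratio of -1.0. Both fed values are near the minimum, and the T3 values rest on few reads. The sequence zma-MIR169i-p3 went the other way, with 23.1 in T3 and 10.8 in T1, against 5.78 in CK3 and 4.42 in CK1, a ratio of 1.03. The largest miR169 member, bdi-MIR169a-p5_2ss8TC17TC, named after a Brachypodium precursor, had 139 in T3 and 96.9 in T1, against 76.0 in CK3 and 131 in CK1, a ratio of 0.51. Its seed TAGGCTC is not that of the family, and it was the 1 member named 5p or p5 with a ratio above 0.

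In the miR156 family, which targets SPL transcription factors of the juvenile phase, the 2 strands differed. The total was 1509 normalized reads in T3 and 1404 in T1, a log2 ratio of 0.10 that changed sign under median-of-ratios scaling. All 6 compared 5p sequences had ratios above 0, with a sum of 1096 in T3 and 961 in T1, and of the 5 with the seed GACAGAA 3 stayed above 0 under median-of-ratios scaling. Of 6 compared 3p sequences 5 were below 0, with a sum of 375 in T3 and 405 in T1. The leading strand zma-miR156k-5p_L+1 had 544 in T3 and 457 in T1, against 378 in CK3 and 517 in CK1, and was level.

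The 3′-extended forms of miR156a-5p differed more between T3 and T1 than the form they extend. The shortest form zma-miR156a-5p had 444 normalized reads in T3 and 426 in T1, against 441 in CK3 and 310 in CK1, a log2 ratio of 0.06. The form with 1 more base, bdi-miR156b-5p_R+1, had 33.1 in T3 and 16 in T1, against 19.0 in CK3 and 21.3 in CK1, a ratio of 1.0. The form bdi-miR156b-5p_R+2 had 17.6 in T3 and 10.3 in T1, a ratio of 0.72, and bdi-miR156b-5p_R+3 had 13.7 in T3 and 7.87 in T1, a ratio of 0.73. The 3 longer forms together made up 12.7% of the set in T3 (95% Clopper-Pearson interval 11% to 14.5%) and 7.44% in T1 (6.17% to 8.87%), against 10.1% in CK3 and 7.66% in CK1. The T3 and T1 intervals did not overlap. Another extension, aof-miR156a_R+1, had 7.39 in T3 and 5.45 in T1, below the minimum, and is not in these shares. Longer forms were not higher in general. Of 16 base sequences 2 had such intervals apart, and the other, tae-MIR9774-p5_2ss4AG21GT, went the opposite way, with longer forms at 39.0% in T3 (38.7% to 39.3%) and 42.5% in T1 (42.2% to 42.8%). Over 23 pairs of a sequence and its 3′ extension, from 12 families, the longer form had the higher ratio in 11.

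Among the miR156 3p strands, zma-miR156i-3p was listed at 0 in T3 and had 10.3 normalized reads in T1, 11.6 in CK3 and 7.36 in CK1. It was the sequence whose interval lay wholly beyond 2-fold lower. The sequence zma-miR156e-3p_2ss13CA21TC differs from it by 1 base, T21C counted from the 5′ end, and had 136 in T3 and 145 in T1, against 150 in CK3 and 209 in CK1. Both share the seed CTCACTG. The second lower call, zma-miR156j-3p_L-1, had 4.93 in T3 and 10.9 in T1, with a listing at 0 in both unfed libraries.

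Family miR171, which targets GRAS transcription factors of the HAIRY MERISTEM group, held the highest ratio of any maize-named sequence. The strand zma-miR171d-5p had 21.1 normalized reads in T3 and 4.54 in T1, against 7.43 in CK3 and 13.2 in CK1, a log2 ratio of 2.0 with an interval of 1.38 to 3.14. T3 was the highest of the 4 libraries and T1 the lowest. The strand zma-MIR171j-p3, which the table also lists as zma-miR171d-3p and under other miR171 precursors, had 104 in T3 and 98.2 in T1, against 87.3 in CK3 and 175 in CK1, and was level. The most abundant family member, aof-miR171c, had 185 in T3 and 186 in T1, against 164 in CK3 and 255 in CK1.

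The families of auxin signalling held 16 compared sequences, none of them called and 11 of them level, with a median log2 ratio of 0.13. Family miR160, which targets auxin response factors that repress transcription, totalled 696 normalized reads in T3 and 534 in T1, a ratio of 0.38. Its leading strand zma-miR160a-5p had 549 in T3 and 428 in T1, against 228 in CK3 and 615 in CK1, so both fed values lay between the unfed ones. All 4 sequences with its seed GCCTGGC had ratios above 0, from 0.25 to 0.70, and the same held under median-of-ratios scaling.

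Family miR390, which triggers phased small RNAs that act on other auxin response factors, leaned the other way. Its strand zma-miR390a-5p had 425 normalized reads in T3 and 547 in T1, against 457 in CK3 and 706 in CK1, a log2 ratio of -0.37. T3 was the lowest of the 4. Family miR393, which targets the auxin receptors TIR1 and AFB, was led by zma-miR393a-5p_L+1R-2 with 80.6 in T3 and 100 in T1, against 61.9 in CK3 and 80.9 in CK1, a ratio of -0.31. Family miR167, which targets auxin response factors that activate transcription, was led by zma-miR167e-5p_R+1 with 389 in T3 and 339 in T1, against 557 in CK3 and 278.7 in CK1. The family total had a ratio of 0.20, which changed sign under median-of-ratios scaling.

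The families of copper proteins and laccases held 14 compared sequences, none called and 7 level, but they did not lean together. Family miR397, which targets laccases, the copper enzymes of lignin formation, totalled 1268 normalized reads in T3 and 2008 in T1, a log2 ratio of -0.66. Most of it was zma-MIR397b-p5, with 1035 in T3 and 1734 in T1, against 2210 in CK3 and 988 in CK1, a ratio of -0.74 with an interval of -0.81 to -0.68. For this strand the values of the unfed libraries lay on either side of both fed ones. The opposite strand zma-MIR397b-p3 had 233 in T3 and 274 in T1, against 228 in CK3 and 215 in CK1. It was level, with a ratio of -0.23.

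Family miR398, which targets copper/zinc superoxide dismutases, totalled 501 normalized reads in T3 and 372 in T1, a log2 ratio of 0.43. Its guide strand zma-miR398a-3p had 400 in T3 and 266 in T1, against 277 in CK3 and 210 in CK1, a ratio of 0.58 with an interval of 0.46 to 0.71. T3 was the highest of the 4 libraries. The 5p strand of the same precursor, zma-miR398a-5p_R+2_1ss21GA, went the same way, with 58.4 in T3 and 37.5 in T1, a ratio of 0.63. Its values in CK3 and CK1 were 14.9 and 26.5. Another precursor of the family gave zma-miR398b-5p_R-1, which had 43.0 in T3 and 67.8 in T1, against 79.3 in CK3 and 26.5 in CK1, a ratio of -0.65. In the miR408 family the strands differed, since zma-MIR408a-p5 had 103 in T3 and 187 in T1, a ratio of -0.86, beside the level strand zma-miR408a. The p5 strand had 44.6 in CK3 and 116 in CK1.

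Of the small RNA machinery, 3 of 4 compared sequences were level. Besides miR168, this list held miR162, which targets the Dicer-like1 messenger, with zma-miR162-3p_R+1 at 29.6 normalized reads in T3 and 26 in T1, a listing at 0 in CK3 and 42.7 in CK1. Its log2 ratio of 0.18 changed sign under median-of-ratios scaling. Of the nutrition families, miR827, which targets SPX-domain genes of phosphate homeostasis, had the highest family ratio. The strand zma-miR827-3p had 1137 in T3 and 785 in T1, against 656 in CK3 and 1030 in CK1, a ratio of 0.53 with an interval of 0.46 to 0.61. T3 was again the highest of the 4, with CK1 next. Family miR399, which targets the phosphate regulator PHO2, had no compared sequence and totalled 19.0 in T3 and 15.9 in T1.

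The phased small RNA triggers were scarce in leaf, with 3 compared sequences. The sequence osa-MIR2118e-p3_2ss12TA18CT had 11.6 normalized reads in T3 and 2.72 in T1, against 26.4 in CK3 and 7.36 in CK1, and was called higher at a log2 ratio of 1.76. The sequence osa-MIR2118k-p5_2ss5GA19TG had 2.46 in T3 and 10.3 in T1, against 5.78 in CK3 and a listing at 0 in CK1, and was called lower at -1.70. These rice-named sequences are 18 and 19 nt long and carry 2 substituted bases each by their names, so their family is uncertain. The sequence ghr-miR482a had 19.7 in T3 and 22.4 in T1, against 33.0 in CK3 and 38.3 in CK1.

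Of the remaining conserved families, none of 7 compared sequences was called and 4 were level. Family miR444, which is found in grasses and targets MADS-box genes, totalled 1056 normalized reads in T3 and 1166 in T1. Its leading sequence zma-miR444a_1ss12TC had 654 in T3 and 733 in T1, against 523 in CK3 and 971 in CK1, a log2 ratio of -0.16, and all 3 sequences with the seed GCAGTTG had ratios below 0. The sequence zma-miR394a-5p, of a family that targets an F-box gene of the shoot tip, had 265 in T3 and 250 in T1, against 198 in CK3 and 360 in CK1, and was level. The sequence zma-miR1432-5p_L-1R+1 had 21.1 in T3 and 15.1 in T1, against 19.8 in CK3 and a listing at 0 in CK1, a ratio of 0.46.

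As classes, the 5p and 3p arms had nearly the same totals in T3 and T1. Of 70 compared sequences named 3p or p3, 13 were called higher and 4 lower, and the median log2 ratio was 0.17. Of 66 named 5p or p5, 8 were called higher and 2 lower, with a median of 0.23. Of 29 with no arm in the name, 2 were called higher and none lower, with a median of -0.07. The totals were 29285 normalized reads in T3 and 29239 in T1 for 3p, and 27353 in T3 and 27193 in T1 for 5p. The miR9774 sequences made up much of both arms, and their arm names do not always mark opposite strands. The abundant tae-MIR9774-p5_2ss4AG21GT, counted as 5p, is tae-MIR9774-p3_2ss4AG21GT, counted as 3p, less 1 base at the 3′ end. Without the miR9774 sequences the 3p total was 11305 in T3 and 9520 in T1, a log2 ratio of 0.25. The 5p total was then 9642 in T3 and 9744 in T1, a ratio of -0.02. It included the abundant zma-MIR397b-p5, with 1035 in T3 and 1734 in T1. The medians without miR9774 were 0.18 for 3p and 0.24 for 5p, so they did not show the same contrast as the totals. Median-of-ratios scaling lowers each of these ratios by about 0.21.

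Within single precursors the balance of the strands differed more. For 16 pairs of a 5p and a 3p sequence from the same maize precursor, 11 had log2 ratios of the same sign on both strands. In 4 pairs the counting intervals of the 5p share did not overlap between T3 and T1. The 5p share of MIR171d was 16.9% in T3 (13.2% to 21.3%) and 4.42% in T1 (2.50% to 7.19%), against 7.85% in CK3 and 7.03% in CK1. Its 3p sequence is shared with other precursors, which also enter this share. The 5p share of MIR159a was 11.8% in T3 (9.81% to 14%) and 6.80% in T1 (5.25% to 8.66%), against 9.80% in CK3 and 1.77% in CK1. In both of these the strand that is usually not the guide made up more of the pair in T3.

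The other 2 pairs had a lower 5p share in T3. The 5p share of MIR397b was 81.6% in T3 (80.3% to 82.9%) and 86.3% in T1 (85.5% to 87.2%), against 90.7% in CK3 and 82.1% in CK1. The share of zma-miR169i-5p in its pair with zma-MIR169i-p3 was 31.4% in T3 (22.2% to 41.5%) and 58.8% in T1 (47.6% to 69.1%), against 61.8% in CK3 and 79.1% in CK1. This shift was not shared by another 3p sequence of the precursor, zma-miR169i-3p_R+2, which had 7.04 in T3 and 12.1 in T1. With that sequence the 5p share was 60% in T3 (45.2% to 73.6%) and 56.0% in T1 (45.2% to 66.4%). For the other pairs the intervals of T3 and T1 overlapped, which does not show that the share was the same. The 5p share of miR528a, for example, was 94.5% in T3 (93.9% to 95.1%) and 93.6% in T1 (93.0% to 94.2%). Over the 16 pairs the less abundant strand was relatively higher in T3 in 7, so no common direction was seen.

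**Figure D3:**
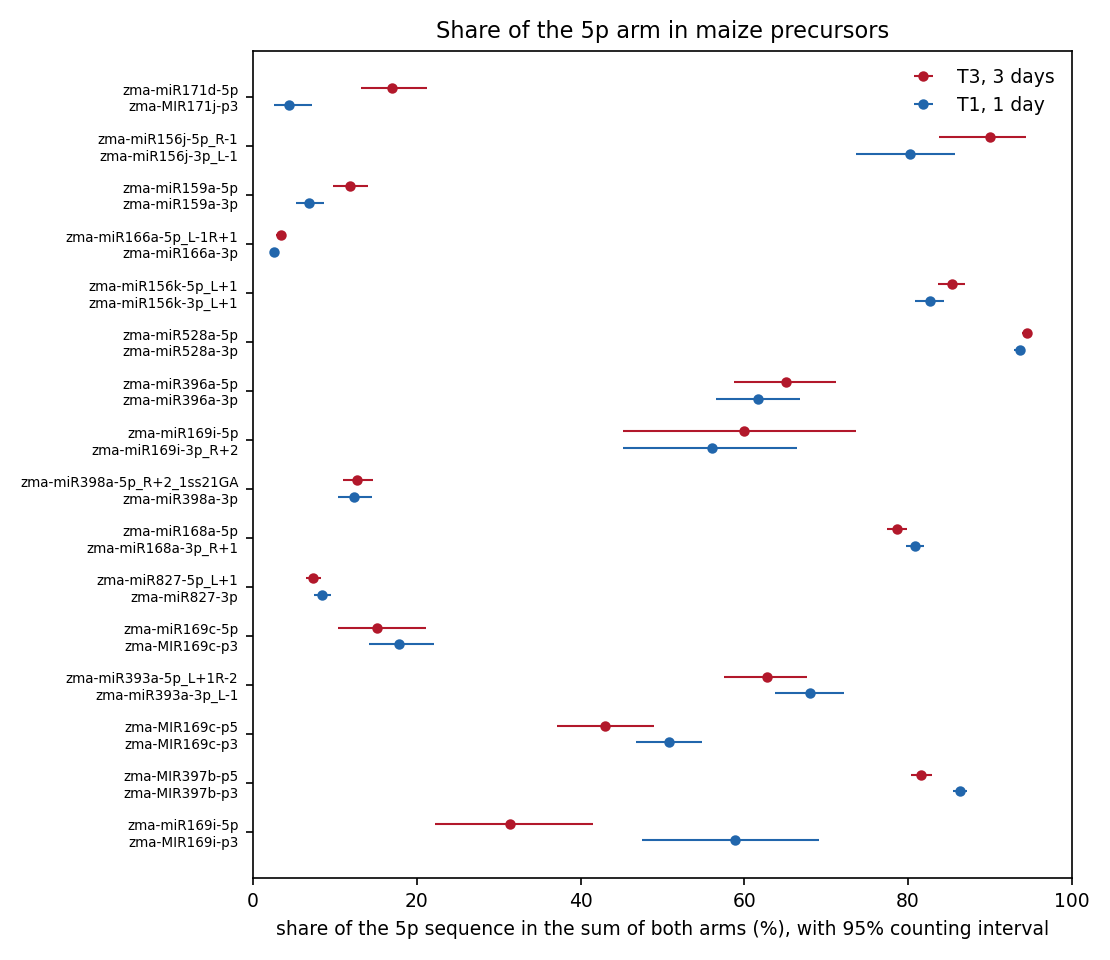
Share of the 5p strand in percent for 16 pairs of strands from the same maize precursor, in T3 and in T1, with exact 95% counting intervals. The intervals are apart for MIR171d and MIR159a, where the T3 share is higher, and for MIR397b and one MIR169i pair, where the T1 share is higher.

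By length, the shortest sequences stood out. The 13 compared sequences of 18 nt had 5 higher and no lower calls and a median log2 ratio of 0.76, and their class totalled 514 normalized reads in T3 and 304.9 in T1. The 11 of 19 nt had 5 higher calls and 1 lower, with a median of 0.68, and totalled 491 in T3 and 286 in T1. The 73 sequences of 21 nt, the usual length of a plant microRNA, had 5 higher calls and 3 lower, with a median of 0.08. Their total was 39646 in T3 and 38334 in T1.

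The other lengths were close to level or held few sequences. The 17 sequences of 20 nt had 1 higher call and a median log2 ratio of 0.25, and the 28 of 22 nt had 2 higher and 2 lower calls and a median of -0.02. The 12 of 23 nt had 2 higher calls and a median of 0.19, and the 9 of 24 nt, the usual length of heterochromatic small interfering RNAs, had 2 higher calls and a median of -0.02. The class of 25 nt had 2 compared sequences and totalled 155 normalized reads in T3 and 78.1 in T1. Totals of 3 classes (18, 19 and 25 nt) thus differed by more than 1.5-fold, which was 1 class (25 nt) under median-of-ratios scaling.

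Many of the 18 and 19 nt sequences have names that are candidates for fragments of ribosomal or transfer RNA. These are families such as miR5368, miR6173, miR4995, miR6300, miR5077 and miR8175, some of whose catalogue entries have been questioned as microRNAs. The choice of these families rests on background knowledge, was made with earlier results of these data known, and no genome was used to place the sequences. Of 28 compared candidates, 12 were called higher, none was called lower and none was level, with a median log2 ratio of 0.90 and a sum of 1667 normalized reads in T3 and 887 in T1. Without them, 137 sequences remained with 11 higher and 6 lower calls and a median of 0.03, so the lean of the whole set towards T3 moved with them. Without them the 19 nt class had a median of -0.19 and a total ratio of -0.09. The 18 nt class kept its median of 0.76 over 7 sequences, of which 2 were called higher and none lower, while its total ratio was 0.42. Of the class totals only that of 25 nt, then a single sequence, differed by more than 1.5-fold.

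**Figure D4:**
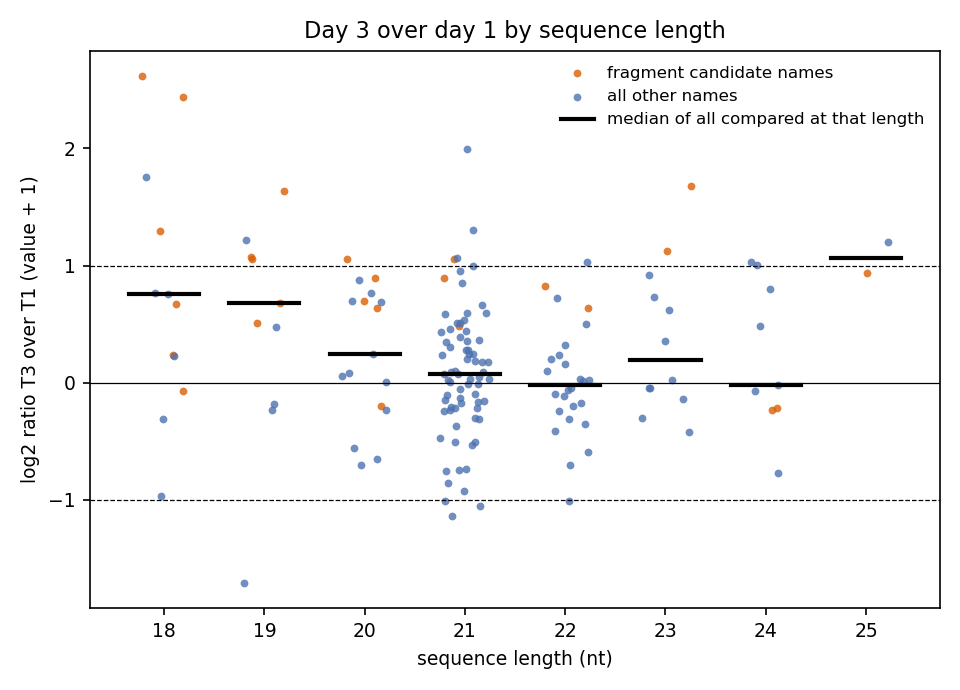
Log2 ratio of T3 over T1 by sequence length from 18 to 25 nt, with each compared sequence as a point (fragment candidates marked apart) and the class median as a bar. The 4 compared sequences listed at 0 in a fed library are not drawn as points but count in the medians, which are 0.76 at 18 nt, 0.68 at 19 nt and 0.08 at 21 nt.

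The largest group of candidates overlapped along a single stretch. The 5 sequences of this group, named after a soybean precursor of miR5368, fit into a span of 28 nt and are shown because their ends differ while their core is shared. Capitals mark the 12 bases that all 5 hold.
gma-MIR5368-p3_1ss4AT: cagtgagATACCACTCTGG
gma-MIR5368-p3_2ss1AT18CA: tgagATACCACTCTGGaag
gma-MIR5368-p3_1ss17CA: gagATACCACTCTGGaag
gma-MIR5368-p3_2ss16CA22AC: agATACCACTCTGGaagagctcg
gma-MIR5368-p3_1ss14CA: ATACCACTCTGGaagagct

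Of these 5 sequences 4 were called higher, and together they had 499 normalized reads in T3 and 196 in T1, against 1684 in CK3 and 292 in CK1. The sequence gma-MIR5368-p3_2ss1AT18CA had 174 in T3 and 55.1 in T1, against 671 in CK3 and 135 in CK1, a log2 ratio of 1.64. It was the 1 called sequence with a mean of at least 100. The sequence gma-MIR5368-p3_2ss16CA22AC had 98.2 in T3 and 29.97 in T1, against 331 in CK3 and 44.2 in CK1, a ratio of 1.68. For both, CK3 was the highest library. The sequence gma-MIR5368-p3_1ss17CA had 131 in T3 and 52.7 in T1, against 406 in CK3 and 82.4 in CK1, and gma-MIR5368-p3_1ss14CA had 38.0 in T3 and 17.6 in T1, against 126 in CK3 and 7.36 in CK1. The fifth, gma-MIR5368-p3_1ss4AT, had 57.7 in T3 and 40.3 in T1 and was not called.

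The other candidate calls were of miR5368, miR4995 and miR6173. The sequence gma-MIR5368-p5_1ss1TC had 22.5 normalized reads in T3 and 3.33 in T1, against 22.3 in CK3 and a listing at 0 in CK1. Of the miR4995 sequences, which overlap within 29 nt and totalled 347 in T3 and 181 in T1, gma-miR4995_L-2R+4 was called, with 83.1 in T3 and 37.5 in T1, against 263 in CK3 and 82.4 in CK1. All 6 compared miR6173 sequences were called higher, but they stand for 3 independent sets of values. The 3 forms of hbr-MIR6173-p3_1ss4CT shared the values 28.2 in T3 and 13.0 in T1, against 217 in CK3 and 22.8 in CK1. Both forms of hbr-MIR6173-p5_1ss8TG had 10.6 in T3 and were listed at 0 in T1, against 34.7 in CK3 and 3.68 in CK1. The sequence hbr-miR6173_L-2 had 14.4 in T3 and 1.51 in T1, against 29.7 in CK3 and a listing at 0 in CK1.

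The candidates that were not called spread around level or leaned to T3. The leading miR4995 form gma-miR4995_L-2R+3 had 131 in T3 and 73.6 in T1, against 340 in CK3 and 122 in CK1, a log2 ratio of 0.82. The sequences gma-miR6300_R+1, with 61.3 in T3 and 37.8 in T1, against 43.8 in CK3 and 22.8 in CK1, and osa-miR5077_L-1_1ss5GA, with 55.6 in T3 and 34.5 in T1, against 13.2 in CK3 and 22.1 in CK1, had ratios of 0.68 and 0.67. Not every candidate leaned this way, since ath-miR8175_L+4 had 21.5 in T3 and 25.4 in T1, against 23.9 in CK3 and 22.1 in CK1. Likewise ptc-miR6478_R-1 had 15.1 in T3 and 17.6 in T1, against 29.7 in CK3 and 21.3 in CK1, and osa-miR5072_L-4 had 15.5 in T3 and 16.3 in T1, with listings at 0 in both unfed libraries.

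The calls that remain fall into neither a conserved family nor the candidates. Both compared miR5083 sequences, named after rice, were called higher, and the larger, osa-MIR5083-p3_1ss25GT, had 89.1 normalized reads in T3 and 38.1 in T1, against 7.43 in CK3 and 38.3 in CK1. T1 and CK1 were alike here, with T3 above and CK3 below them. The smaller, osa-MIR5083-p5_1ss24GC, had 13.4 in T3 and 6.06 in T1, against 4.13 in CK3 and 3.68 in CK1. The sequence mtr-MIR2592bi-p3_2ss8TC19AT had 21.1 in T3 and 8.48 in T1, against 48.7 in CK3 and 8.83 in CK1.

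The sequence aof-MIR8155-p3_1ss5CA was listed in T3 alone, with 16.9 normalized reads, and at 0 in T1, CK3 and CK1. Of the sequences predicted by the authors' pipeline and not named after a known microRNA, 7 were compared and 2 called higher. The sequence PC-3p-17806_53 had 20.4 in T3 and 9.69 in T1, a listing at 0 in CK3 and 11.8 in CK1. The sequence PC-5p-28290_30 had 12 in T3 and 4.24 in T1, a listing at 0 in CK3 and 8.83 in CK1. On the lower side, the sequences closest to a call outside the conserved families were low in every library. The sequence aly-MIR4226-p5_2ss13AC18TG had 6.34 in T3 and 13.3 in T1, against 8.26 in CK3 and a listing at 0 in CK1, and PC-3p-24146_37 had 5.63 in T3 and 10.3 in T1, against 8.26 in CK3 and 10.3 in CK1. By kind of name, 3 of 77 maize-named sequences were called higher and 5 lower, while 18 of 81 named after another plant were called higher and 1 lower.

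The unfed libraries CK3 and CK1, which share no sample with T3 and T1, showed how far 2 libraries of this study could stand apart without recorded feeding. Of 187 sequences with at least 10 normalized reads in either, CK3 exceeded CK1 by 2-fold or more in 28.9% and fell short of it by as much in 22.5%. The unfed libraries thus differed in more sequences than the fed ones, and they were also less deep. Of the 23 sequences called higher in T3, 15 also had CK3 above CK1 by 2-fold or more, which is 65.2% of the 23 and 27.8% of the 54 higher in CK3. Another 2 were lower in CK3, 2 were neither and 4 were below the minimum there.

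All 12 candidates called higher in T3 were also higher in CK3 than in CK1. Of the 11 other higher calls, 3 were higher in CK3, namely osa-MIR2118e-p3_2ss12TA18CT, mtr-MIR2592bi-p3_2ss8TC19AT and zma-miR159a-5p. Of the 6 lower calls, none was lower or higher in CK3 by 2-fold, 3 were neither and 3 were below the minimum. Across the 148 sequences compared in both pairs, the log2 ratios of T3 over T1 and of CK3 over CK1 had a Pearson correlation of 0.32 and a Spearman correlation of 0.24. Without the candidates, over 121 sequences, these were -0.10 and -0.13. These correlations are over sequences of 4 libraries, which are not independent replicates, and are a description. The part that leaf age, wounding, the state of the RNA or the handling of a library had in any of these differences was not tested.

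**Figure D5:**
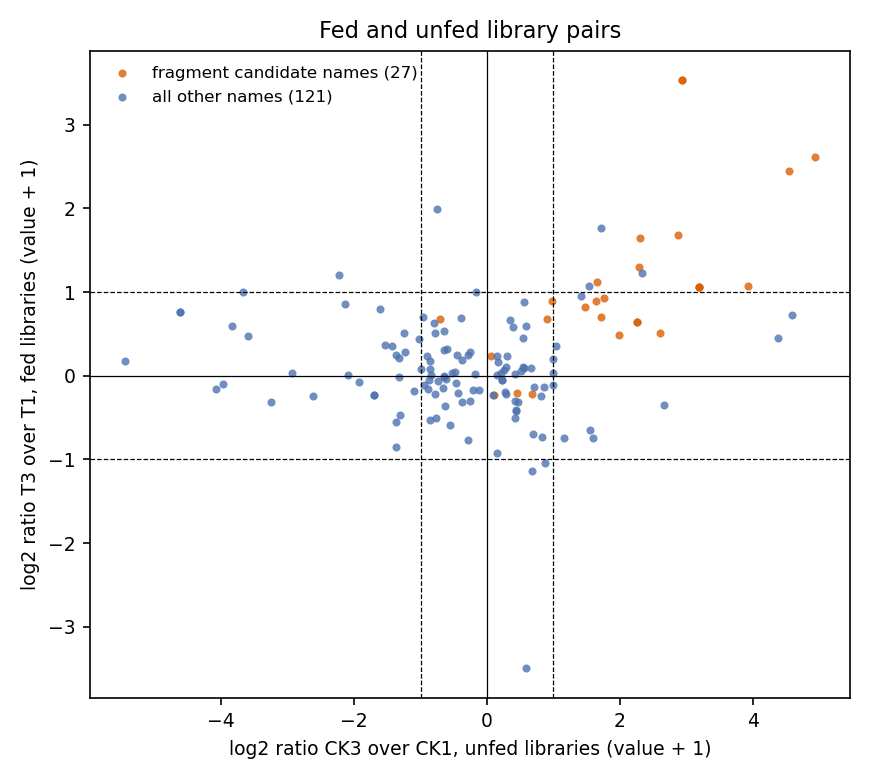
Log2 ratio of T3 over T1 (vertical) against log2 ratio of CK3 over CK1 (horizontal) for the 148 sequences compared in both pairs, with fragment candidates marked apart and dashed lines at 2-fold. The candidates lie mostly at the upper right, and the other 121 sequences show no common trend, with a Pearson correlation of -0.10.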

How the data were processed

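Leaf RNA was isolated with Trizol and small RNA libraries were built with a TruSeq kit for an Illumina HiSeq sequencer, per the labels' protocols. The protocol mentions more libraries than were analysed here (4), and nothing says whether a column is a single library or a pool. The table holds a signal for each microRNA sequence that the authors had already normalized, per the file headers. How it was scaled is not given in the sources used here, nor are aligner, caller or build.

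Each of 319 distinct sequences (of 500 rows) was used once, with a maize name preferred. Family and arm were read from the name, length from the sequence. A sequence was compared with at least 10 in T3 or T1 and called at 2-fold on the log2(value + 1) scale. The value of 1 read was taken as the largest step that divided 85% or more of the low values within 0.02 of a whole read. Of values above 0, 93.8% in T3, 90.4% in T1, 91.5% in CK3 and 91.7% in CK1 were whole, and since the rest were fractions no count test was used. Intervals (95%, Clopper-Pearson) come from implied reads and were tested on simulated independent whole reads. That simulation cannot show how they hold for fractional values or for error beyond counting.

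The text gives all called sequences, the 10 most abundant sequences, the 10 largest ratios each way and the leading sequence of each listed family. Other sequences, strand pairs and the 1.2-fold count of families were chosen after their values were seen. Members and lists were chosen with earlier results of these data known. Python 3.11.15, numpy 2.4.6, pandas 2.3.3, scipy 1.17.1 and matplotlib 3.10.9 were used.

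Alternatives were the pseudocount, the minimum, the scaling, merging of equal-valued sequences, maize names only, and leaving out miR9774 or fragment candidates.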

Additional observations from a re-analysis of the deposited data

How the results depend on the processing

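The calls of 29 sequences (23 higher, 6 lower) depended most on low values. A pseudocount of 5 left 15 calls (12 higher, 3 lower), all among the main ones, a minimum of 50 left 6 of 78 sequences (5 higher, 1 lower), and no minimum gave 102 of 313 (60 higher, 42 lower). Median-of-ratios scaling gave 19 calls with 10 higher, maize names alone gave 8 with 3 higher, and leaving out the fragment candidates gave 17 with 11 higher. A pseudocount of 0.5 (30 calls), equal totals (27) and merging of equal-valued sequences (26) kept the counts within 1.5-fold. Class totals past 1.5-fold numbered 3 of 11, and 1 under median-of-ratios scaling or without the candidates. No total of the conserved families at the minimum passed 2-fold under either pseudocount, either scaling, maize names alone, or equal-valued sequences counted once (chosen after seeing the data); other minimums were not run for totals. Of 60 named sequences, 9 changed sign under median-of-ratios scaling and 1, zma-miR528a-5p, under equal totals. No paired analysis was possible because each group has 1 library, and no replicate could be left out. Total library depth and replicate error are unknown, a listing at 0 can hide up to 5 reads, and the causes of these shifts were not tested.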
